A study of Homo sapiens with 12 samples.

Results

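Heat shock proteins were examined in T24 cells, an established human bladder cancer line, with and without altered U11, the small nuclear RNA that recognises the 5′ splice site of the rare minor class of introns. The members were 10 genes taken by name from the deposited tables (HSPA1A, HSPA1B, HSPA8, HSPH1, DNAJB1, HSP90AA1, HSP90AB1, HSPB1, HSPD1 and HSPE1), out of 60504 gene entries, and each was found once. All 10 passed the TPM minimum in both comparisons. TPM is a length-corrected share of the transcripts of a library. The 12 libraries fell into 2 comparisons. In the first, 2 libraries labelled U11 knockout stood against 2 controls. In the second, 6 libraries labelled U11 overexpression stood against 2 other controls. The 6 carry 3 further numbers in their titles (79, 86 and 87, 2 libraries each), whose meaning is not given and which are called line labels here. All 4 controls are labelled untreated. The methods describe the knockout as made with CRISPR/Cas9 and the overexpression with a transfected plasmid, both followed by selection of single clones, so that a label may stand for 1 clone. Nothing states that replicates came from separate cultures, and the P values then measure only the spread between these libraries, which may be technical.

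Heat shock proteins are molecular chaperones. The HSP70 proteins bind exposed hydrophobic stretches of unfolded proteins in a cycle of ATP hydrolysis that J-domain (HSP40) proteins start and nucleotide exchange factors end. HSP90 acts later, on nearly folded clients such as kinases and steroid receptors, small heat shock proteins hold unfolded proteins without ATP, and the mitochondrial chaperonin encloses a client in a chamber. Under heat or proteotoxic stress, heat shock factor 1 (HSF1) binds inverted repeats of nGAAn upstream of many of these genes, and tumour cells often carry high levels of them without such stress.

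Some properties of the libraries touch every value below and are given once. U11 went against its label in the first comparison, with 21.3 and 23.8 TPM in the controls but 31.6 and 37.4 TPM where the label is U11 knockout. In the second comparison it read 0.0334 and 0.623 TPM in the controls, 0.183 and 0.412 TPM for line label 79, 3.99 and 3.72 TPM for line label 86, and 61.9 and 53.6 TPM for line label 87. The libraries of line label 79 thus lay within the range of their controls. By quantitative PCR, the study reports U11 as significantly decreased in its knockout line and significantly raised in its overexpression line. How fully these libraries capture small nuclear RNAs was not tested, so U11 TPM may not reflect its level in the cells. The libraries of the 2 comparisons also differed in composition. The 10 most abundant genes held 45.5 to 49.6% of all TPM in the first comparison and 7.06 to 7.56% in the second, and histone genes of the HIST clusters summed to 27662 to 34279 TPM and to 103 to 180 TPM. Members were therefore tested within a comparison, and the few values set across both are named as such. Aligned sequence came to 9.07 to 15.3 gigabases per library. The epithelial keratins KRT7, KRT8, KRT18 and KRT19 were at 90.3 TPM or above in every library. The mesenchymal marker VIM was also high, at 1259 to 2887 TPM. Of the urothelial markers, UPK1A, UPK1B, UPK2, UPK3A and KRT20 were at 0.437 TPM or below. The urothelial markers GATA3 (2.38 to 17.41 TPM) and PPARG (18.88 to 54.55 TPM) were present in every library. The leukocyte markers PTPRC and CD3E were at 0.915 TPM or below. The endothelial marker PECAM1 was at 0.297 TPM or below, while CDH5 ranged from 0.0293 to 34.1 TPM.

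The sequences upstream of 4 members are shown because their values turned out to bear on the comparisons: HSPA1A and HSPA1B, a nearly identical pair, HSPB1, which differed most between line labels, and the stretch between HSPE1 and HSPD1. All were taken from RefSeq promoter windows on GRCh38.p14. Capitals mark the letters GAANNTTC or TTCNNGAA, 2 units of the heat shock element facing each other, searched on both strands (each reads the same on both). The first 3 sequences are the 250 bases before the RefSeq start, at chr6:31815293-31815542 (plus strand), chr6:31827488-31827737 (plus strand) and chr7:76302423-76302672 (plus strand). The deposited entries start inside these windows.
HSPA1A: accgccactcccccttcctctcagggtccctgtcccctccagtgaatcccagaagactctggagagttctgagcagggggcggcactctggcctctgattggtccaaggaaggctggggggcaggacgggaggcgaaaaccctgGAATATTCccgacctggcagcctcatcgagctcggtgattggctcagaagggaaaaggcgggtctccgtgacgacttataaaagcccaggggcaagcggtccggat
HSPA1B: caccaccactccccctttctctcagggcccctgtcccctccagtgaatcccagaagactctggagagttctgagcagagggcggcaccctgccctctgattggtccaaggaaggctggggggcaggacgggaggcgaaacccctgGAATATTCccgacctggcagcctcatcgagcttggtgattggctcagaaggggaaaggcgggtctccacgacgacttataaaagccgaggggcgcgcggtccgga
HSPB1: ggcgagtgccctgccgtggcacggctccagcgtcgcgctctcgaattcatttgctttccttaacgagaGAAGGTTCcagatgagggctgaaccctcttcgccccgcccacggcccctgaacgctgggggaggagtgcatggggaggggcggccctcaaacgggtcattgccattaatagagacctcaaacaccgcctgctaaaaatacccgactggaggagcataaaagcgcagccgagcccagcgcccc
The last is the 104 bases between the start of HSPE1 and the nearest start of HSPD1, which are transcribed away from each other, at chr2:197500275-197500378 (plus strand, read towards HSPE1).
HSPE1 to HSPD1: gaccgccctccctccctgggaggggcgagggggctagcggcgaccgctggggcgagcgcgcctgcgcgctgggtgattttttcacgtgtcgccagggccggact
The windows of HSPA1A and HSPA1B were 93.6% identical and carried the same match, GAATATTC, from 106 and 105 bases before the start. HSPB1 carried GAAGGTTC from 182 bases before the start, and no such letters lay in the 104 bases between HSPE1 and the nearest start of HSPD1.

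Over the 16 RefSeq windows of the 10 members, some of which have several starts, 8 members had a 2-unit match in at least 1 window, against 11.6% of 35116 windows of all genes. A 3-unit match (GAANNTTCNNGAA or TTCNNGAANNTTC, which overlaps 2-unit matches) was found for 4 members, HSPA8, HSP90AA1, HSP90AB1 and HSPD1, against 0.441% of all windows. HSPA8, the constitutive HSP70, held 2 of them, GAAAGTTCCAGAA from 230 and TTCTGGAAGGTTC from 55 bases before its start. HSPD1 had its matches at the second of its 2 starts, which overlap each other in GAAAGTTCTGGAA and TTCTGGAAAGTTC. That second start lies farther from HSPE1, and these matches lie between it and the start of HSPE1. HSPH1 and HSPE1 had no match in their windows. Members with several windows had more chances of a match, and a match is a description of letters, not of binding.

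HSPA8 was among the 31 most abundant genes of every library, and with both HSP90 genes it made up most of the summed TPM. The 10 members together summed to 3733 and 4516 TPM under the knockout label, and their controls held 4460 and 5217 TPM. In the second comparison the controls held 8884 and 9464 TPM and the overexpression libraries 8703 to 9560 TPM, so the sums overlapped in both comparisons. The share of HSPA8 in the sum was 43.4 to 56.1% in the first comparison and 33.3 to 39.1% in the second. The share of the pair HSP90AA1 and HSP90AB1 was 25.6 to 33.2% and 41.6 to 45.2%.

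**Figure D1:**
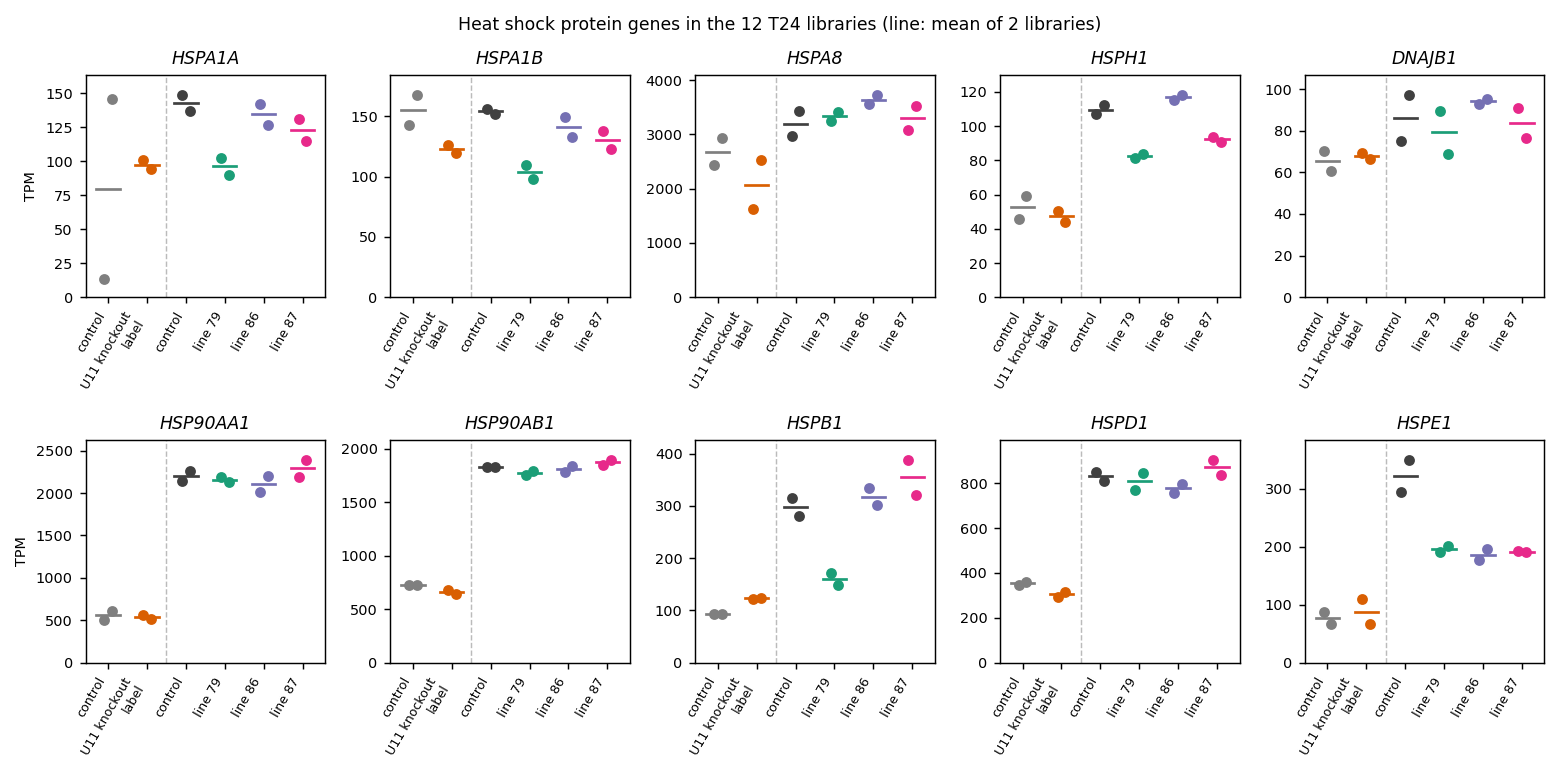
TPM of each of the 10 members in the 12 libraries (points), with a line at the mean of the 2 libraries of each group; the dashed line separates the 2 comparisons, whose TPM scales differ. HSPE1 lies between 176 and 200 TPM in the 6 overexpression libraries and at 295 and 350 TPM in their controls, and HSPB1 is low for line label 79 alone among the line labels.

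The first comparison asked which members differ in libraries labelled U11 knockout. A gene was called at an unadjusted P under 0.05 from limma and a fold change of at least 1.5. These thresholds are named in the study's methods, where they were applied with DESeq2, a different test. Of the 10 members, 0 were called by limma, where 11.8% of the 14356 genes tested were called, or 6.85% when P was adjusted. By unadjusted P alone 3 of 10 members passed 0.05 (HSPB1, HSPA1B and HSPD1), a share like the 30.1% of all genes, and by adjusted P 0 did. The median log2 fold change of the 10 members was -0.09, against 0.11 for all genes, and 7 members lay below the median of all genes. Median ratio scaling brought the median of all genes to 0.0028, so changes are also given relative to the unscaled median of all genes. On that basis HSPA8 was at -0.505, HSPA1B at -0.438, HSPD1 at -0.322, HSPH1 at -0.252 and HSP90AB1 at -0.246. HSP90AA1 was at -0.15, DNAJB1 at -0.0548, HSPE1 at 0.0512, HSPB1 at 0.28 and HSPA1A at 0.974. In 4 of 10 members, HSPA1B, HSP90AB1, HSPB1 and HSPD1, labelled libraries and controls did not overlap, against 60.2% of all genes.

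HSPB1 (ENSG00000106211; hg38 chromosome 7, 76302544 to 76304295), also called HSP27, is a small heat shock protein that forms large oligomers and is phosphorylated downstream of p38 signalling. It measured 121.7 and 124.3 TPM under the knockout label, against 93.7 and 93.9 TPM in the controls. Both labelled libraries lay above both controls, by less than the fold change required. In bulk libraries, more cells with a transcript and more of it per cell cannot be told apart. The change was 0.39 on the log2 scale, with a standard error of 0.08 and an adjusted P of 0.0538 from limma, or 0.28 relative to all genes. HSPD1 (ENSG00000144381; chromosome 2, 197486581 to 197516737), the mitochondrial chaperonin HSP60, was at 294.3 and 316.0 TPM against 346.4 and 361.5 TPM in the controls. The log2 fold change of HSPD1 was -0.21 (standard error 0.08, adjusted P = 0.154 by limma). HSP90AB1 (ENSG00000096384; chromosome 6, 44246166 to 44253888), the constitutive cytosolic HSP90, was at 674.6 and 642.9 TPM against 723.4 and 726.1 TPM. Its log2 fold change was -0.14 (standard error 0.07, adjusted P = 0.242 by limma). For both genes the labelled libraries lay below the controls. The deposited entry of HSPB1 overlaps no other, whereas HSPA8 holds 3 small nucleolar RNA genes (SNORD14C, SNORD14D and SNORD14E) on its own strand and DNAJB1 overlaps TECR on the other.

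HSPA8 (ENSG00000109971; chromosome 11, 123057489 to 123063230), or HSC70, the constitutive HSP70 that also uncoats clathrin, measured 1621.1 and 2525.5 TPM under the knockout label, against 2428.9 and 2924.2 TPM in the controls. The groups overlapped, and replicate 1 of the labelled libraries was the lowest of the 4. From limma its log2 fold change was -0.40 (95% interval -0.99 to 0.20, adjusted P = 0.31). Without replicate 2 of that label the log2 fold change was -0.72, past the unadjusted threshold, with an adjusted P of 0.162 from limma. HSP90AA1 (ENSG00000080824; chromosome 14, 102080738 to 102139699), the stress-inducible cytosolic HSP90, was at 565.0 and 517.1 TPM against 507.5 and 610.6 TPM. HSPH1 (ENSG00000120694; chromosome 13, 31134974 to 31162388), also called HSP105 or HSP110, a nucleotide exchange factor of HSP70, was at 50.2 and 44.1 TPM against 45.9 and 59.2 TPM. DNAJB1 (ENSG00000132002; chromosome 19, 14514770 to 14529770), the heat-inducible HSP40, was at 69.5 and 66.3 TPM against 70.3 and 60.8 TPM. The groups overlapped for all 3, and their log2 fold changes lay between -0.14 and 0.05. HSPE1 (ENSG00000115541; chromosome 2, 197499994 to 197503457), or HSP10, the lid of the HSP60 chamber, was at 109.8 and 66.1 TPM against 87.0 and 66.7 TPM, with a log2 fold change of 0.16 (95% interval -0.55 to 0.87). Its spread within the label was wider than the difference between the groups.

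HSPA1A (ENSG00000204389; chromosome 6, 31815464 to 31817946) and HSPA1B (ENSG00000204388; chromosome 6, 31827735 to 31830255) encode the major stress-inducible HSP70 and lie next to each other in the major histocompatibility complex. Each has a single exon, and their GENCODE canonical transcripts were 90.9% identical, gaps counted. Of all windows of 150 bases, the read length in the study's methods, 69.6% of those in the HSPA1A transcript also occurred in a transcript of HSPA1B. A read from a shared window cannot be told apart by its own sequence. The study's methods name paired reads, and mates that lie outside the shared windows were not considered here. The split between the 2 genes thus depends in part on how reads were assigned. HSPA1B measured 126.2 and 119.7 TPM under the knockout label, against 142.8 and 167.7 TPM in the controls. Both labelled libraries lay below both controls, by -0.33 on the log2 scale (standard error 0.11, adjusted P = 0.129 by limma). HSPA1A measured 100.5 and 94.0 TPM under the same label, 145.9 TPM in control replicate 2 and 13.6 TPM in control replicate 1.

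That control stood apart in the split of the pair. HSPA1A held 8.73% of the TPM of both genes in it, and 43.99 to 48.8% in the other 11 libraries. The log2 fold change of HSPA1A was accordingly 1.08 with a standard error of 1.07 (adjusted P = 0.545 by limma). It was -0.58 without control replicate 1 and 2.75 without control replicate 2, so 1 library decided its direction. Summed over both genes, TPM was 226.7 and 213.7 in the labelled libraries and 156.4 and 313.6 in the controls, and the log2 fold change of the sum was -0.01 (adjusted P = 0.988 by limma).

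**Figure D2:**
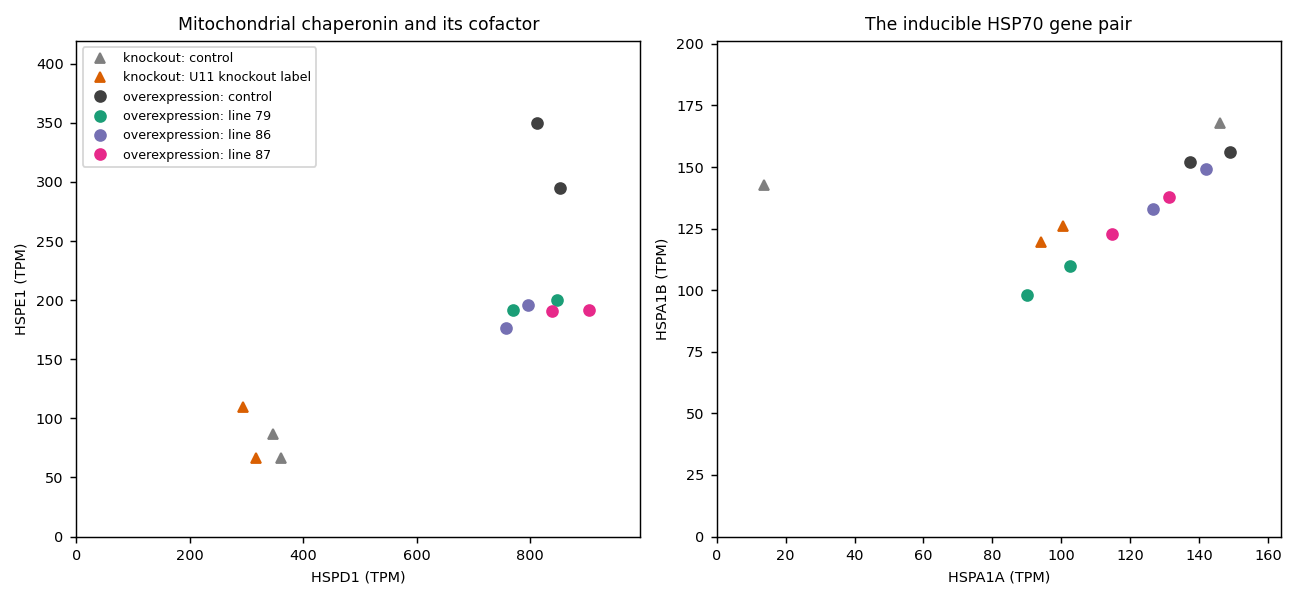
TPM of HSPE1 against HSPD1 (left) and of HSPA1B against HSPA1A (right) in each of the 12 libraries; triangles are the knockout comparison, circles the overexpression comparison. HSPE1 separates the overexpression libraries from their controls at overlapping HSPD1, and 1 knockout control has HSPA1A at 13.6 TPM with HSPA1B at 142.8 TPM.

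The second comparison asked which members differ in the 6 libraries labelled U11 overexpression. HSPE1 alone of the 10 members was called, and it was lower, where 1.93% of the 15768 genes tested were called, or 0.165% when P was adjusted. It measured 349.5 and 294.6 TPM in the controls, 191.6 and 200.4 TPM for line label 79, 176.3 and 195.4 TPM for line label 86, and 191.8 and 190.5 TPM for line label 87. All 6 libraries lay below both controls. The mean was 191 ± 8.06 TPM (SD, n = 6) against 322 ± 38.8 TPM (SD, n = 2), a ratio of 0.593. The log2 fold change was -0.75 (standard error 0.08, adjusted P = 0.014 by limma). The 2 controls differed more from each other than the 6 libraries did. Without control replicate P3 the log2 fold change was -0.87 (adjusted P = 0.0522 by limma), and without control replicate 4 it was -0.62 (adjusted P = 0.237 by limma). With 1 mean for each line label it was -0.75 with an adjusted P of 0.203 from limma. The call under the study's thresholds held in each of these.

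The call depended on which controls were used. Against all 4 control libraries the log2 fold change of HSPE1 was 0.28 and was not called (adjusted P = 0.589 by limma), since the controls of the first comparison were at 87.0 and 66.7 TPM. Libraries of the 2 comparisons differ in composition, as given above, and the part of that difference in the HSPE1 value was not tested. Over all genes at the TPM minimum, the controls of the second comparison exceeded those of the first by a median of 0.86 on the log2 scale. The same difference was 2.06 for HSPE1, 1.98 for HSP90AA1, 0.26 for HSPA8 and -0.01 for HSPA1B.

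HSPD1, whose protein works with that of HSPE1 and whose gene starts 105 bases away on the opposite strand, was not called. It measured 812.0 and 852.9 TPM in the controls, and the 6 libraries ranged from 757.6 to 904.1 TPM. The groups overlapped, and the log2 fold change of HSPD1 was -0.03 (95% interval -0.22 to 0.17). The ratio of HSPD1 to HSPE1 was 2.32 and 2.90 in the controls and 4.02 to 4.71 in the overexpression libraries, with no overlap. In the first comparison the ratio was 3.98 and 5.42 in the controls and 2.68 and 4.78 in the libraries labelled U11 knockout. The deposited entries of the 2 genes overlap on opposite strands, and since strandedness is not stated, reads from the overlap cannot be told apart. HSPE1 is a short gene with copies elsewhere. The tables listed 26 pseudogenes of it, which summed to 11.2 to 23.5 TPM per library. That equals 5.95 to 26.3% of the HSPE1 value of the same library. Of the 150-base windows of its canonical transcript, 10.8% also occurred in the readthrough HSPE1-MOB4, which was listed at 0 TPM in 8 of the 12 libraries and reached at most 5.09 TPM. The part of reads shared with these entries in the HSPE1 value was not tested.

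The other 9 members were not called. HSPA1B measured 151.9 and 155.9 TPM in the controls and 98.2 to 149.3 TPM over the 6 libraries, without overlap. It was the second of 2 members of 10 whose groups did not overlap, beside HSPE1, against 9.87% of all genes. Its log2 fold change was -0.31 (standard error 0.15, adjusted P = 0.874 by limma). HSPA1A measured 137.2 and 148.8 TPM in the controls and 90.1 to 142.0 TPM over the 6 libraries, with a log2 fold change of -0.29 (adjusted P = 0.898 by limma). HSPH1 (-0.19) and HSPB1 (-0.19) had wide spreads over the line labels. The log2 fold changes of HSPA8 (0.10), HSP90AA1 (-0.01), HSP90AB1 (-0.01) and DNAJB1 (-0.01) had 95% intervals that reached no further than -0.34 or 0.33, short of the fold change required. The median over the 10 members was -0.11, against -0.02 for all genes.

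The effects of the 2 labels share no library and could be compared. The difference of the effects passed an adjusted P of 0.05 in limma for 0 of the 10 members, against 2.96% of 16404 genes, and an unadjusted P of 0.05 for HSPE1. For HSPE1 the knockout effect exceeded the overexpression effect by 0.91 on the log2 scale (standard error 0.26, adjusted P = 0.0891 by limma).

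**Figure D3:**
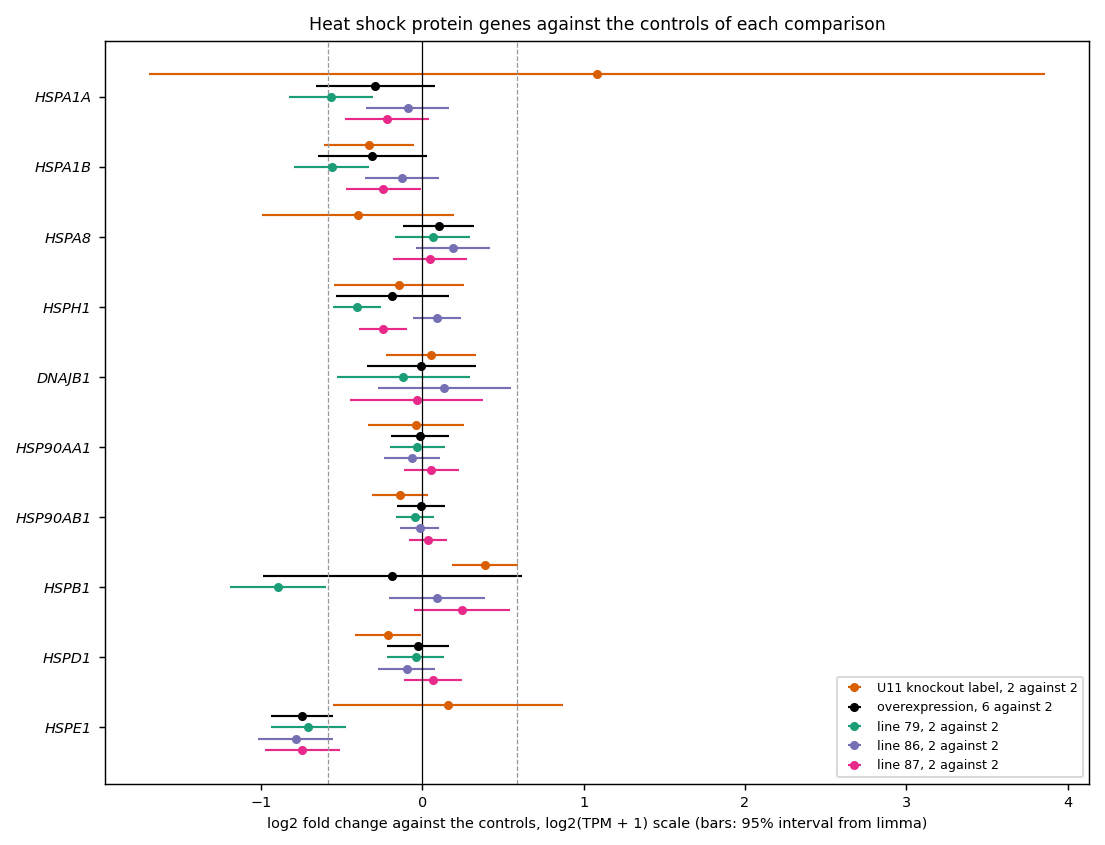
Log2 fold change of each member on the log2(TPM + 1) scale with its 95% interval from limma, for the knockout label, the 6 overexpression libraries together and each line label; dashed lines mark a 1.5-fold change. HSPE1 lies left of the dashed line in the overexpression comparison and for each line label, and HSPB1 for line label 79.

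By line label, the members fell into those that moved together across the 3 labels and those that did not. The 3 contrasts below share their 2 controls, so their values are given side by side and are not independent. HSPE1 was called lower for each label, with log2 fold changes of -0.71 (adjusted P = 0.0083 by limma) for 79, -0.79 (adjusted P = 0.0176 by limma) for 86 and -0.74 (adjusted P = 0.0133 by limma) for 87. For line label 79, HSPB1 was called too, making 2 of 10 members against 7.95% of all genes. For 86 and 87, HSPE1 was the 1 member called, against 3.6% and 5.13% of all genes. HSPE1 was thus lower both for line label 79, where U11 lay within the range of the controls, and for line label 87, where U11 was highest. Between line labels HSPE1 had an adjusted P of 0.834 in limma's F test.

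HSPB1 differed most between line labels. It was at 171.4 and 148.8 TPM for line label 79, 334.0 and 301.4 TPM for 86, 387.8 and 321.6 TPM for 87, and 280.7 and 316.0 TPM in the controls. Both libraries of line label 79 lay below all 6 others. Against the controls the log2 fold change was -0.89 (standard error 0.12, adjusted P = 0.00858 by limma) for 79, 0.09 for 86 and 0.25 for 87, the last 2 not called. Line label 79 was lower than 86 by a log2 difference of -0.99 (adjusted P = 0.00515 by limma) and lower than 87 by -1.14 (adjusted P = 0.0032 by limma). Line labels 86 and 87 differed by -0.15 (95% interval -0.45 to 0.14), within their spread.

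HSPH1 was the other member with a difference in limma's F test between line labels. It was at 81.4 and 83.5 TPM for 79, 93.8 and 90.7 TPM for 87, 115.1 and 118.2 TPM for 86, and 112.1 and 106.8 TPM in the controls. The libraries of 79 were the lowest, those of 87 next, and those of 86 above both controls. The order of its levels was thus 79, 87, control, 86. In that order 79 differed from 86 (-0.50, adjusted P = 0.00508 by limma) and 86 from 87 (0.34, adjusted P = 0.0285 by limma), while the neighbours 79 and 87 did not pass (-0.16, adjusted P = 0.174 by limma). The other neighbours did not pass either: 87 stood at -0.24 (adjusted P = 0.1 by limma) and 86 at 0.09 (adjusted P = 0.602 by limma) against the controls. The adjusted P of the F test was 0.00401 for HSPB1 and 0.00774 for HSPH1, 2 of 10 members, against 16% of the genes tested. HSPA1B (0.0505) and HSPA1A (0.0548) were just above the threshold in adjusted P, and both passed it with a replicate block.

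HSPA1A and HSPA1B followed one another. HSPA1A was at 102.5 and 90.1 TPM for line label 79, 131.2 and 114.7 TPM for 87, and 142.0 and 126.7 TPM for 86. HSPA1B was at 109.9 and 98.2 TPM, 137.7 and 122.7 TPM, and 149.3 and 133.1 TPM in the same order. For both genes the libraries of 79 lay below those of the other labels, and 86 and 87 overlapped. Within replicate 1 and within replicate 3, however, 86 lay above 87 for both genes. Against the controls the log2 fold changes for line label 79 were -0.57 (adjusted P = 0.0245 by limma) for HSPA1A and -0.56 (adjusted P = 0.0173 by limma) for HSPA1B, under the fold change required. Without replicate 1 of line label 79 both were called, and without control replicate 4 HSPA1A was. Summed over both genes the log2 fold change was -0.57 (adjusted P = 0.019 by limma), so it did not rest on the split of reads between them.

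With HSPH1 at -0.40 (adjusted P = 0.012 by limma), 5 of 10 members passed an adjusted P of 0.05 for line label 79, all lower, against 9.91% of all genes. HSPA1A and HSPA1B share most of their transcript windows, so they are not independent in this count or the next. Between line labels 79 and 86 the same threshold was passed by HSPB1, HSPH1, HSPA1A and HSPA1B, against 13.5% of all genes. Between 79 and 87 it was passed by HSPB1, against 10.5%, and between 86 and 87 by HSPH1, against 6.41%. No such difference was called for 4 further members. HSP90AB1 ranged from 1750.9 to 1894.7 TPM and HSP90AA1 from 2012.0 to 2388.7 TPM over the 6 libraries. HSPA8 was between 3077.0 and 3728.8 TPM and DNAJB1 between 69.0 and 95.3 TPM. None of these 4 passed against the controls for any line label or between line labels.

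**Figure D4:**
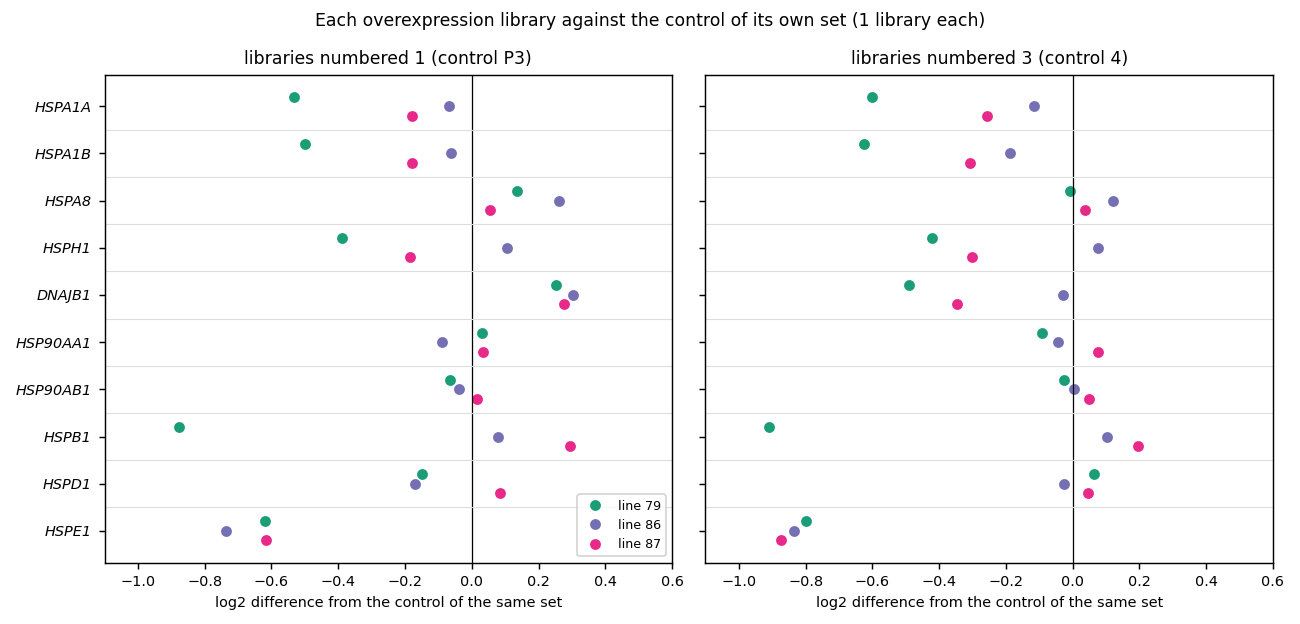
Log2 difference of each overexpression library from the control of its own set on the log2(TPM + 1) scale, for the libraries numbered 1 with control P3 (left) and those numbered 3 with control 4 (right); each point is 1 library against 1. HSPE1 is lower in all 6, HSPB1, HSPH1, HSPA1A and HSPA1B are lowest for line label 79 in both sets, and DNAJB1 is higher in the first set and lower in the second.

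The library identifiers in the titles split the second comparison into a set with the number 1 and control P3 and a set with the number 3 and control 4. Within the sets the log2 difference of HSPE1 was -0.62, -0.74 and -0.62 for line labels 79, 86 and 87 in the first and -0.80, -0.84 and -0.87 in the second. That of HSPB1 for line label 79 was -0.88 and -0.91, and those of HSPH1 were -0.39 and -0.42. HSPA1A for line label 79 was at -0.53 and -0.60. These held within both sets. DNAJB1 did not: it was 0.25 to 0.30 higher than control P3 in the first set and 0.03 to 0.49 lower than control 4 in the second.

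Genes of the wider chaperone network were counted from 9 lists of 106 genes in all. In the overexpression comparison 0 genes of the 9 lists were called by limma, where 1.93% of all genes were called, and 1 of the 95 list genes tested had an unadjusted P under 0.05, against 6% of all genes. The list of HSF1, HSF2, HSF4 and HSBP1 had no called gene in any comparison. The TRiC chaperonin and prefoldin (14 genes) and the HSP70 nucleotide exchange factors and cochaperones (12 genes) had none either. Of 16 other heat-inducible genes tested in the overexpression comparison, 3 had a log2 fold change above 0 and 0 were called, and the median log2 fold change of the 16 was -0.03. Of 9 other small heat shock proteins, 1 passed the TPM minimum in each comparison.

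In the libraries labelled U11 knockout, 3 of 24 other J-domain genes were called higher and 1 lower, against 11.8% of all genes. DNAJB2, a neuronal-enriched HSP40 that hands clients to the proteasome, was at 20.3 and 20.2 TPM against 11.1 and 9.59 TPM in the controls. The change of DNAJB2 was 0.91 on the log2 scale (adjusted P = 0.0246 by limma). DNAJC14 (0.82, adjusted P = 0.0444 by limma), DNAJC16 (0.59, adjusted P = 0.146 by limma) and DNAJA4 (-0.74, adjusted P = 0.126 by limma) were the others. The median of the list was 0.18, against 0.11 for all genes. TRAP1, the mitochondrial HSP90, was the 1 gene called among 16 HSP90 paralogs and cochaperones and among 13 mitochondrial chaperones and proteases. It measured 53.5 and 46.7 TPM under the knockout label and 99.3 and 88.2 TPM in the controls, or -0.89 on the log2 scale (adjusted P = 0.0246 by limma). The mitochondrial members HSPD1 and HSPE1 were not called there, as given above.

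For line label 79, 4 of the 95 list genes tested were called, a smaller share than the 7.95% of all genes. HSPA14, an HSP70 that works with the ribosome, was at 43.8 and 45.0 TPM against 71.8 and 68.1 TPM in the controls, -0.65 on the log2 scale (adjusted P = 0.00522 by limma). DNAJA4 was at 10.7 and 11.2 TPM against 23.2 and 24.4 TPM, -1.05 on the log2 scale (adjusted P = 0.0019 by limma). DNAJB6, an HSP40 that holds back aggregation of polyglutamine proteins, was at 60.2 and 67.5 TPM against 101.4 and 131.7 TPM, -0.85 on the log2 scale (adjusted P = 0.0178 by limma). DNAJB5 was the 1 that was higher, at 14.6 and 15.1 TPM against 4.12 and 7.45 TPM, 1.27 on the log2 scale (adjusted P = 0.0503 by limma). For line labels 86 and 87, 0 of the 95 list genes were called by limma, against 3.6% and 5.13% of all genes.

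The genes most like each member were taken by Pearson correlation of log2(TPM + 1) over the 8 libraries of the second comparison, among 1357 genes with a mean of at least 5 TPM and a range of at least 1 on the log2 scale. The 8 libraries share their line labels and controls, and the correlations describe only these. For HSPB1 they were LIMK1 (r = 0.995), QPRT (r = 0.989) and CYS1 (r = 0.988). HSPE1 was most like TUBA1A (r = 0.989), TGFB2 (r = 0.958) and IFI6 (r = 0.956). For HSPH1 they were NTN4 and ALPK2 (r = 0.988 each) and DNAJA4 (r = 0.984), the last of which was also called for line label 79. MYL9 and COL9A3 were among the 3 for both HSPA1A (r = 0.980 and 0.981) and HSPA1B (r = 0.983 and 0.977). For HSPA8, HSP90AA1, HSP90AB1, DNAJB1 and HSPD1, whose own ranges were 0.49 or less on the log2 scale, r was between 0.795 and 0.931.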

How the data were processed

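RNA sequencing was done on 12 T24 libraries. Per the study's methods, the authors trimmed reads with fastp, aligned them to hg38 with Hisat2 and quantified genes with StringTie; their versions are not given in the sources used here. The labels name polyA RNA, whereas the methods name ribosomal RNA depletion, and strandedness is not stated. The deposited tables give TPM, FPKM and coverage for each gene. TPM was the value analysed, the deposited coverage was used in 1 alternative after rescaling to aligned gigabases, and the authors' FPKM was not used. Read counts were not used here, so the depth behind a value is not known beyond aligned bases.

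A gene was tested when 2 or more libraries of the comparison reached 1 TPM, with limma 3.58.1 (R 4.3.3; trend) on log2(TPM + 1), with Benjamini-Hochberg adjustment over all genes tested. Fold changes are on that scale, which understates low genes. Calls needed a 1.5-fold change and an unadjusted P under 0.05. Each comparison was fitted against its own controls, line labels in 1 fit of 4 groups. The code was tested on simulated data. The members and gene lists were chosen with earlier results of these data known. Named list genes were, per list and comparison, up to 4 called genes with the largest change, a mean of at least 5 TPM in 1 group and no overlap. Promoter windows came from RefSeq and transcripts and exon counts from GENCODE 44.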

Additional observations from a re-analysis of the deposited data

Results flagged for a closer look

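Differences between line labels passed an adjusted P of 0.05 from limma in 6 of 30 contrasts of the members. Over all genes the share that passed was 13.5% between 79 and 86, 10.5% between 79 and 87 and 6.41% between 86 and 87. HSPB1 was lower for line label 79 than for 86 (log2 difference -0.99) and than for 87 (-1.14). HSPH1 was lower for 79 than for 86 (-0.50) and higher for 86 than for 87 (0.34). HSPA1A (-0.48) and HSPA1B (-0.44), which share most of their transcript windows and are not independent, were lower for 79 than for 86. Line label 79 is the one whose U11 lay within the range of the controls, and what the number stands for is not given, so a line and its treatment cannot be told apart. No library of the 6 overexpression libraries stood apart for any of the 10 members by Dixon's test. Groups of 2 cannot be tested in this way, and the HSPA1A value of 13.6 TPM in knockout control replicate 1 was therefore not covered.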

How the results depend on the processing

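HSPE1 was called in the overexpression comparison, and for each line label, under each alternative scaling, filter and pseudocount, and without each library in turn. The exception was the use of all 4 controls, where HSP90AA1 was called instead, at a log2 fold change of 0.98 (adjusted P = 0.176 by limma). The adjusted P of HSPE1 was 0.0126 to 0.237 over the other alternatives. Controls of the second comparison share no replicate number with the line labels, so only the sets could pair its libraries. Over all genes the correlation of deviations was 0.0244 in the first comparison and 0.0704 to 0.15, all positive, in the second. HSPA1A, HSPA1B and HSPB1 were lower and HSPA8 higher in the second set for every line label and the controls. The other members moved in mixed directions, and a shift between the sets was not tested. With a replicate block, 0 knockout and 1 overexpression member were called, as without it, and all genes called went from 1688 to 1706 and from 304 to 284. The members that differed between line labels rose from 2 to 4 with the replicate block, and to 4 with coverage per aligned gigabase, an alternative chosen after seeing the data. HSPA1A and HSPA1B, which are not independent, joined HSPB1 and HSPH1 in both. The share of all genes that passed was 16% in the main fit and is not given for these alternatives. Whether the rise exceeds that of all genes was therefore not tested. Leaving out 1 library each gave 0 to 1 members called for the knockout label and 2 to 4 for line label 79.

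Directions that turned belong to members near 0 or with 1 library apart, and the cause was not tested. In the knockout comparison, the log2 fold change of DNAJB1 was -0.071 with median ratio scaling, -0.023 with quantile normalization and -0.046 with coverage. In the overexpression comparison with median ratio scaling, that of HSP90AA1 was 0.00041, of HSP90AB1 0.0042 and of DNAJB1 0.0078, and DNAJB1 was at 0.010 with quantile normalization and 0.0099 with coverage. Without 1 library each, the knockout log2 fold changes ranged from -0.58 to 2.75 for HSPA1A, -0.32 to 0.035 for HSPH1, -0.18 to 0.091 for HSP90AA1, -0.050 to 0.16 for DNAJB1 and -0.20 to 0.52 for HSPE1. The overexpression values ranged from -0.0052 to 0.21 for HSPA8, -0.054 to 0.027 for HSP90AA1, -0.022 to 0.00088 for HSP90AB1, -0.19 to 0.18 for DNAJB1 and -0.061 to 0.010 for HSPD1. Differences under 1.5-fold were left out by the call rule. With 2 libraries in most groups, larger ones could be missed too. In the knockout comparison the 95% interval from limma ran from -0.99 to 0.20 for HSPA8 and from -1.69 to 3.86 for HSPA1A on the log2 scale.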
